A study of Mus musculus with 26 samples.

Results

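Smooth muscle cells shorten by sliding actin filaments over myosin, and the genes followed here encode that machinery. The 10 genes are Acta2, Actg2, Myh11, Myl9, Mylk, Tagln, Cnn1, Smtn, Lmod1 and Des. They were chosen by name and matched by Ensembl identifier in every count table, and they are 10 of the 55414 gene identifiers that all tables share. All 10 passed the filter on low counts in every comparison. The libraries come from 2 vessel beds of male C57BL6J mice: the aorta, whose wall is rich in elastin, and the mesenteric arteries, muscular branches that supply the intestine. All mice carried the floxed Sphk1 alleles (Sphk1f/f). Mice without Cre (Tagln-cre-) are called WT. Mice with Cre under the mouse SM22α/Tagln promoter (Tagln-cre+) are called KO and lack Sphk1, which encodes sphingosine kinase 1, in smooth muscle cells. Angiotensin II (AngII), a hormone that constricts vessels, was given to induce hypertension at a dose of 490 ng/kg/min over 14 days from an osmotic minipump implanted at 12 to 14 weeks of age. Each tissue gave 4 WT sham, 4 WT AngII and 5 KO AngII libraries. The labels title the sham mice normotensive and do not say what they received. A sham KO group and mice with Cre but without floxed alleles were not analysed here, so the loss of Sphk1 and the presence of Cre cannot be told apart.

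In smooth muscle, a rise in calcium activates calmodulin, which switches on the myosin light chain kinase encoded by Mylk. The kinase phosphorylates the regulatory light chain encoded by Myl9, and the myosin heavy chain encoded by Myh11 then pulls on filaments of the actins encoded by Acta2 and Actg2. Calponin (Cnn1), transgelin (Tagln) and smoothelin (Smtn) bind actin, leiomodin 1 (Lmod1) helps actin filaments to form, and desmin (Des) builds intermediate filaments that tie the contractile lattice to the cell edge. Together these genes serve as markers of the contractile state of vascular smooth muscle. Actg2 is best known as the actin of visceral smooth muscle such as the gut wall, and desmin is known to vary in amount between vessels. Many of these genes are controlled by serum response factor, which binds a DNA element called the CArG box, with its partner myocardin.

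Levels are given as CPM (counts scaled to a common library size), scaled by TMM over all 26 libraries, as mean ± SD. Depth was ample for these genes, with 17.54 to 32.25 M counts assigned to genes per library and at least 1019 counts for Des, the member with the lowest count in any library. The targeted gene matched the labels: Sphk1 stood at 12.1 to 25.2 CPM in aortic WT AngII libraries and 1.78 to 3.43 CPM in KO libraries, and at 9.51 to 17.3 against 2.81 to 4.62 CPM in the mesenteric arteries. The corresponding log2 fold changes were -2.90 ± 0.262 (SE, adjusted p = 0.00046) and -1.83 ± 0.195 (adjusted p = 0.0101) by edgeR's quasi-likelihood test. Both tissues held the defining smooth muscle genes at high levels, and 4 libraries lay farthest from their group means. Aortic WT AngII replicate 1 was below its group mean for all 10 members, by a mean of 0.61 on the log2 scale. Mesenteric KO replicate 3 was below its group mean for all 10, by 0.75, and had the highest lymphocyte marker sum of all libraries, 1317 CPM over 10 genes. Mesenteric KO replicate 4 was above its group mean for all 10, by 0.64, and aortic KO replicate 3 likewise by 0.43. For several results, values without these libraries are given as well.

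The smooth muscle actin Acta2 had the highest level per kilobase of exon in all 6 groups, from 5070 ± 1161 CPM per kb in aortic KO AngII to 7201 ± 761 in aortic WT sham. Tagln, Myl9 and Myh11 followed in that order in every group. In the aorta of WT sham mice Tagln, at 3256 ± 423 CPM per kb, did not differ beyond the spread from Myl9, at 3092 ± 408, and Cnn1, at 544 ± 96.6, did not differ from Smtn, at 506 ± 35.9. Lmod1 at 316 ± 12.8, Mylk at 195 ± 9.07, Actg2 at 165 ± 37.9 and Des at 32.0 ± 7.35 CPM per kb closed the order, and Des was last in all 3 aortic groups. In the mesenteric arteries of WT sham mice Des, at 694 ± 83.3 CPM per kb, came next after Myh11 and was followed by Actg2, at 537 ± 59.0, both above Cnn1, Smtn, Mylk and Lmod1, which lay between 276 ± 36.3 and 307 ± 47.3 and did not differ from each other beyond their spread. Exon lengths come from another annotation release than the counts, so these levels per kilobase are approximate.

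The 10 genes together made up 4.17 ± 0.338% of all gene counts in the WT sham aorta, 2.96 ± 0.675% after AngII and 2.65 ± 0.553% in KO AngII mice. Shares in the mesenteric arteries were 4.51 ± 0.364%, 4.51 ± 0.587% and 4.38 ± 1.14%. The sham libraries of the 2 beds thus gave similar totals, while the group means under AngII were lower in the aorta; the libraries overlapped through mesenteric KO replicate 3, at 2.92%.

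**Figure D1:**
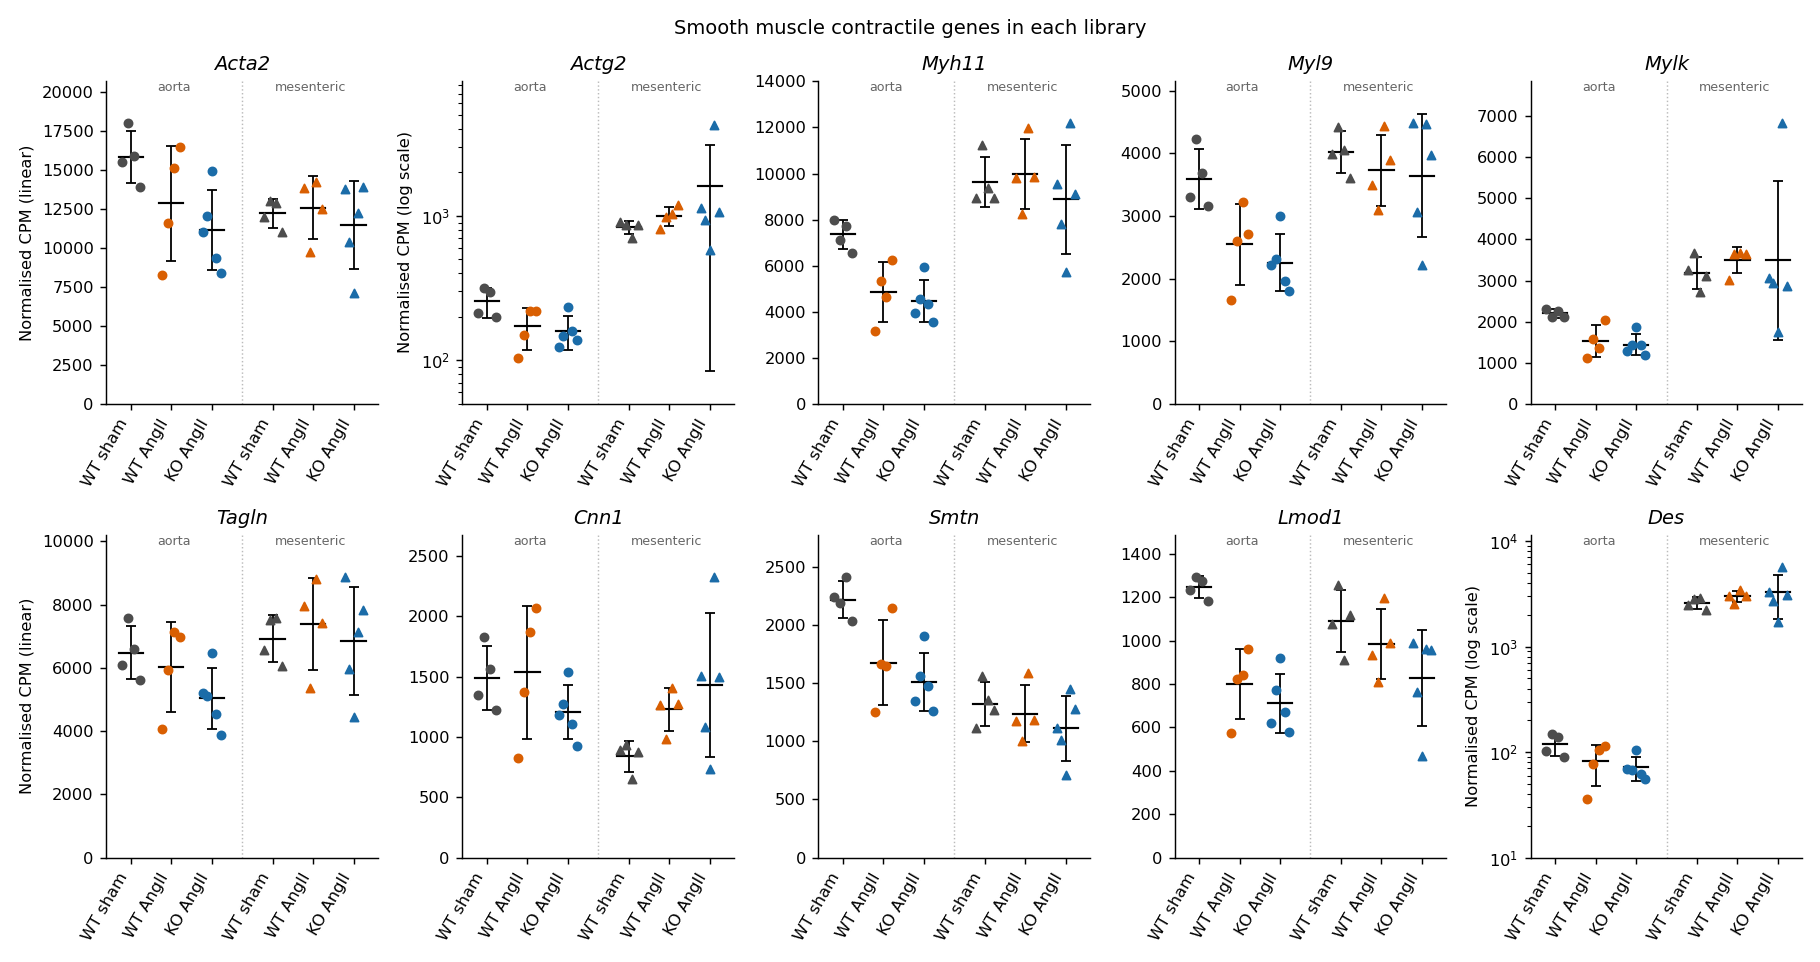
Normalised CPM of each member in every library (points in replicate order; circles aorta, triangles mesenteric arteries; bars mean and SD, n = 4, 4 and 5 per tissue; Actg2 and Des on log axes, the others linear from 0). Des lies between 35.9 and 147 CPM in the aorta and between 1715 and 5734 CPM in the mesenteric arteries, and in the AngII aorta Lmod1 lies below its sham values.

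The windows just before the RefSeq starts were read for 7 of the 10 genes, those with an entry in the reference table (build GRCm38.p6, 250 bases before the start, 1 start per gene). The windows of 5 genes are shown. Those of Acta2, Myl9, Lmod1 and Mylk carry sites searched for, as does that of Smtn, which is not shown. Des is shown because its level differed most between the beds. Capitals mark the CArG box, allowing at most 1 central base that is not A or T, and the core GGAATG on either strand, known as the MCAT element that binds TEAD factors.
Acta2, chr19:34255374-34255623, minus strand: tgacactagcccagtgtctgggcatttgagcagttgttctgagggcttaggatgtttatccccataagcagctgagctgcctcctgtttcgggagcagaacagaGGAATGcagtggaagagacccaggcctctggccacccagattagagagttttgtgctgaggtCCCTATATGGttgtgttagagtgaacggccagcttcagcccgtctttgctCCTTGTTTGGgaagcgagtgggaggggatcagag
Myl9, chr2:156775214-156775463, plus strand: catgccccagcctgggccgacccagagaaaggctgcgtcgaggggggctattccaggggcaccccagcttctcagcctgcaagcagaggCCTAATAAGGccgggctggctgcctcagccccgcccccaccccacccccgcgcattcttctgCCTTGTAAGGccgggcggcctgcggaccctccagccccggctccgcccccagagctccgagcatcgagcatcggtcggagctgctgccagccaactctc
Lmod1, chr1:135324563-135324812, plus strand: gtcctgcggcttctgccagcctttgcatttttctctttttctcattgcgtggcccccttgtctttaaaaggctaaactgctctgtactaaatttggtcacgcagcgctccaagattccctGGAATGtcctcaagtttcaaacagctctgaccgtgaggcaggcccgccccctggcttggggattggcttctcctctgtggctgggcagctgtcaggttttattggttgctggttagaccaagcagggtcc
Mylk, chr16:34784700-34784949, plus strand: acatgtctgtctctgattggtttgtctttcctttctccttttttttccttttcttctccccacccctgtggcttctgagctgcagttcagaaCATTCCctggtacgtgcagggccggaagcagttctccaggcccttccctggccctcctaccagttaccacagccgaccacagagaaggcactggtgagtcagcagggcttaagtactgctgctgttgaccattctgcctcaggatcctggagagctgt
Des, chr1:75360042-75360291, plus strand: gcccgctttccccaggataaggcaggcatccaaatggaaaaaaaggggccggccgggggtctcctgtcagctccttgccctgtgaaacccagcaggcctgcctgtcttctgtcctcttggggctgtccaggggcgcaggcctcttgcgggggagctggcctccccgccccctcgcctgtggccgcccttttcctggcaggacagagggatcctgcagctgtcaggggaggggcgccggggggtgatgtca
An exact CArG box was found in the window of Myl9 alone, starting 161 bases before the start, and in 1.47% of all 32851 windows of the same length. With 1 central mismatch allowed, the windows of Acta2 (at -84 and -34) and Myl9 (at -161 and -99) held a match, against 8.59% of all windows. GGAATG on either strand occurred in the windows of Acta2, Lmod1, Mylk and Smtn, against 12.6% of all windows. The windows of Des and Cnn1 held none of these letters. A match describes the sequence only, and the coordinates belong to the older build, not to that of the counts.

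In the aorta, AngII infusion lowered 3 of the 10 genes: leiomodin 1, the smooth muscle myosin heavy chain and the myosin light chain kinase. Relative to sham Lmod1 fell by 36.5%, Myh11 fell by 34.7% and Mylk fell by 31.2%. Of the 10 genes 9 had log2 fold changes below 0, and none rose. Among all 16863 genes tested 25.5% were called, 10.8% as lower and 14.7% as higher, where a call is a Benjamini-Hochberg adjusted p below 0.05 over all genes. The median log2 fold change of the members was -0.52 and that of all genes tested was -0.0005, with 50.1% of all genes below 0. With library size alone as the scale, 3729 genes in place of 1826 were called lower and 1747 in place of 2475 higher, and the median of all genes moved to -0.13, so that the fall of the members is given relative to TMM.

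Lmod1 stood at 1233, 1294, 1277 and 1181 CPM in the sham aorta and at 575, 821, 842 and 960 CPM after AngII. All 4 AngII libraries lay below all 4 sham libraries. The log2 fold change was -0.65 ± 0.158 (SE, adjusted p = 0.00729), and the call held without each library in turn (adjusted p 0.00305 to 0.022). Lmod1 nucleates actin filaments, and its sham libraries lay close together.

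Among the motor genes, Myh11 stood at 7977, 7128, 7741 and 6572 CPM in sham libraries and at 3164, 5354, 4659 and 6227 CPM after AngII, again without overlap. Its log2 fold change was -0.61 ± 0.196 (adjusted p = 0.0316). Mylk stood at 2309, 2106, 2264 and 2119 CPM in sham libraries and at 1120, 1589, 1369 and 2034 CPM after AngII, with a log2 fold change of -0.54 ± 0.169 (adjusted p = 0.0295). The highest AngII library, replicate 4, came close to the sham range for both genes, and the lowest was replicate 1. Mylk counts combine the long kinase, the smooth muscle kinase and telokin, which share exons. The call of Myh11 was lost without WT AngII replicate 1 or 3 or without sham replicate 1, 2 or 3 (adjusted p 0.0527 to 0.0768), and that of Mylk without WT AngII replicate 1, 2 or 3 or without sham replicate 1 or 3 (0.0504 to 0.0711). Neither was called when the 2 groups were fitted without the KO libraries (adjusted p = 0.0618 for Myh11 and 0.0561 for Mylk).

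The third motor gene, the regulatory light chain Myl9, stood at 3306, 4224, 3681 and 3160 CPM in sham libraries and at 1665, 2598, 3223 and 2706 CPM after AngII. The ranges overlapped by 1 library, and the log2 fold change of -0.51 ± 0.193 did not pass (adjusted p = 0.0668). Smoothelin showed the same picture: Smtn stood at 2238, 2188, 2414 and 2033 CPM and then at 1249, 1664, 1649 and 2147 CPM, with -0.42 ± 0.157 (adjusted p = 0.0645). DESeq2 called both genes lower, with adjusted p = 0.0266 for Myl9 and 0.0312 for Smtn. Without aortic KO replicate 3 edgeR also called both lower (adjusted p = 0.0475 for Myl9 and 0.0457 for Smtn). It called Myl9 without WT AngII replicate 3 (0.0291) and Smtn without WT AngII replicate 4 (0.0104).

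The actins gave values below 0 that did not pass the test. Acta2 stood at 15494, 17978, 15868 and 13916 CPM in sham libraries and at 8247, 11568, 15128 and 16431 CPM after AngII, where 2 libraries were inside the sham range and 2 below it. Its log2 fold change was -0.31 ± 0.218 (adjusted p = 0.321). Actg2 stood at 214, 315, 299 and 198 CPM and then at 104, 151, 221 and 221 CPM, with -0.57 ± 0.258 (adjusted p = 0.126). The 95% interval of Acta2 ran from -0.78 to 0.15, which holds the value of Lmod1.

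Calponin and transgelin had the values nearest to 0. Cnn1 stood at 1344, 1825, 1560 and 1223 CPM in sham libraries and at 829, 1375, 1870 and 2068 CPM after AngII, with AngII libraries both below and above the sham range. The log2 fold change was 0.03 ± 0.238, with a 95% interval of -0.48 to 0.54. Tagln stood at 6077, 7584, 6600 and 5628 CPM and then at 4055, 5929, 7148 and 6982 CPM, with -0.12 ± 0.190. The intermediate filament gene Des stood at 103, 147, 139 and 90.0 CPM and then at 35.9, 77.6, 105 and 114 CPM. Its log2 fold change of -0.55 ± 0.319 carried the widest interval of the 10, -1.25 to 0.15.

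Genes of the same machinery that are not members are given by lists of companion genes. These counts stand beside the 25.5% of all genes called. Of 14 thin filament and dense body genes 2 rose and 2 fell in the AngII aorta: the tropomyosins Tpm4 (1.13 ± 0.096 on the log2 scale) and Tpm3 (0.53 ± 0.0634) rose, and calponin 3 (Cnn3, -0.34 ± 0.0856) and Pdlim7 (-0.47 ± 0.154) fell. Tpm3 and Tpm4 encode tropomyosins that are widely expressed outside muscle as well. Of 13 genes of myosin light chain phosphorylation 1 rose and 5 fell, among them Ppp1r12a, the targeting subunit of the myosin phosphatase (-1.04 ± 0.138), and its catalytic subunit Ppp1cb (-0.43 ± 0.132), while the light chain Myl12a rose (0.40 ± 0.129). Counts of Mylk, which include telokin beside the kinase, and of the phosphatase subunits Ppp1r12a and Ppp1cb were thus lower. As given above, the call of Mylk was lost without some single libraries. Of 8 transcriptional regulators Klf4 rose (0.69 ± 0.117) and Srf (-0.41 ± 0.142) and Foxo4 (-0.25 ± 0.0545) fell. Klf4 is known as a repressor of contractile genes and Srf encodes serum response factor. The other regulators listed, among them myocardin (Myocd), were not called, and the median log2 fold change of the 8 was -0.05. The part of these regulators in the levels of the members was not tested. Of 6 intermediate filament genes and partners Dtna fell (-0.59 ± 0.190), and of 6 other actins and non-muscle myosins tested Myh10 fell (-0.37 ± 0.0982).

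Markers of other cell types moved in the same libraries. The summed level of 10 fibroblast markers was 7928 to 9467 CPM in the sham aorta, 22343 to 51763 CPM after AngII and 24860 to 47097 CPM in KO AngII mice, and 5 of the 10 rose and 1 fell with AngII in WT mice. Their median log2 fold change in WT mice was 0.74, and a sum gives most weight to the genes of highest level. The 10 macrophage and monocyte markers all rose, with sums of 531 to 651 CPM in sham and 725 to 970 CPM in WT AngII libraries. None of these fibroblast and macrophage markers was at 0 in a whole group. The 8 neuron and glia markers summed to 64.4 to 104 CPM in sham, 105 to 152 CPM in WT AngII and 102 to 134 CPM in KO AngII libraries, and 3 of the 5 tested rose with AngII in WT mice. The library with the highest fibroblast sum, WT AngII replicate 1, was also the one with the lowest level of all 10 members in its group. The part of these markers in the fall of the contractile genes was not tested, and in bulk tissue fewer smooth muscle cells and less of a transcript per cell cannot be told apart. Pericyte markers (8 genes), some of which smooth muscle shares, summed to 2523 to 2990 CPM in sham and 2101 to 2887 CPM in WT AngII libraries, with 2 higher and 2 lower.

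Between KO and WT AngII aortas none of the 10 genes passed the test. All 10 log2 fold changes were below 0, between -0.35 ± 0.225 for Cnn1 and -0.08 ± 0.160 for Mylk, with a median of -0.17 against -0.009 for all genes tested. Without WT AngII replicate 1 the values ran from -0.56 ± 0.170 (Cnn1) to -0.21 ± 0.146 (Mylk). Without WT AngII replicate 4, Mylk (0.08 ± 0.142), Myh11 (0.02 ± 0.180) and Actg2 (0.01 ± 0.269) were above 0, as was Actg2 without WT AngII replicate 3 (0.02 ± 0.266). None was called by edgeR, with adjusted p between 0.981 and 0.986, and 0 of the 10 had an unadjusted p below 0.05. DESeq2 also called none. Over all 16863 genes 0.00593% were called, which is 1 gene, Sphk1. This comparison and that of WT AngII with sham share the 4 WT AngII libraries, so their values are given side by side and not related to each other.

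The KO AngII aortas lay close to the WT AngII aortas. Lmod1 stood at 620, 771, 918, 671 and 579 CPM in KO libraries, inside the WT AngII range of 575 to 960 CPM. Myh11 stood at 3956, 4540, 5962, 4328 and 3575 CPM, inside the WT range of 3164 to 6227 CPM. Acta2 stood at 10990, 12022, 14925, 9375 and 8357 CPM, inside the WT range of 8247 to 16431 CPM. The groups overlapped throughout for these 3 genes. Cnn1, the member with the lowest fold change, stood at 1185, 1270, 1534, 1107 and 927 CPM and spread less than the WT AngII libraries, which ran from 829 to 2068 CPM. The 95% intervals of the 10 genes still allowed log2 falls of 0.42 (Mylk) to 0.87 (Des), and rises of 0.12 (Tagln) to 0.45 (Des).

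Against the WT sham aorta, the KO AngII aorta had 6 of the 10 genes lower and none higher, where 30.8% of all genes were called, 14.2% as lower and 16.6% as higher (2796 higher and 2401 lower, against 2192 and 4075 with library size alone as the scale). This contrast joins the infusion and the deletion, and its sham libraries are those used above. Lmod1 had a log2 fold change of -0.82 ± 0.148 (fold 0.566, adjusted p = 0.000801), with all 5 KO libraries below all 4 sham libraries. Myh11 followed with -0.73 ± 0.184 (adjusted p = 0.00744), Myl9 with -0.69 ± 0.182 (0.0103), Mylk with -0.62 ± 0.159 (0.00828) and Smtn with -0.57 ± 0.148 (0.00903), again without overlap between the groups. For Myl9 the KO libraries stood at 2213, 2312, 2993, 1969 and 1797 CPM, for Mylk at 1275, 1443, 1875, 1431 and 1195 CPM and for Smtn at 1346, 1561, 1904, 1474 and 1261 CPM. These 5 calls held without each library in turn. Actg2 was called at adjusted p = 0.0481 (-0.69 ± 0.243), with KO libraries at 125, 147, 234, 160 and 139 CPM, and lost the call without any of 8 of the 13 libraries (adjusted p up to 0.133). Acta2 (-0.52 ± 0.206, adjusted p = 0.0679), Des (-0.76 ± 0.301, 0.0774), Tagln (-0.38 ± 0.180, 0.128) and Cnn1 (-0.32 ± 0.225, 0.305) did not pass. Without aortic KO replicate 3, edgeR called Acta2 (adjusted p = 0.025) and Des (0.0367) lower. It called both without WT AngII replicate 1 (0.0239 and 0.012), and Acta2 without WT AngII replicate 4 (0.0422).

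**Figure D2:**
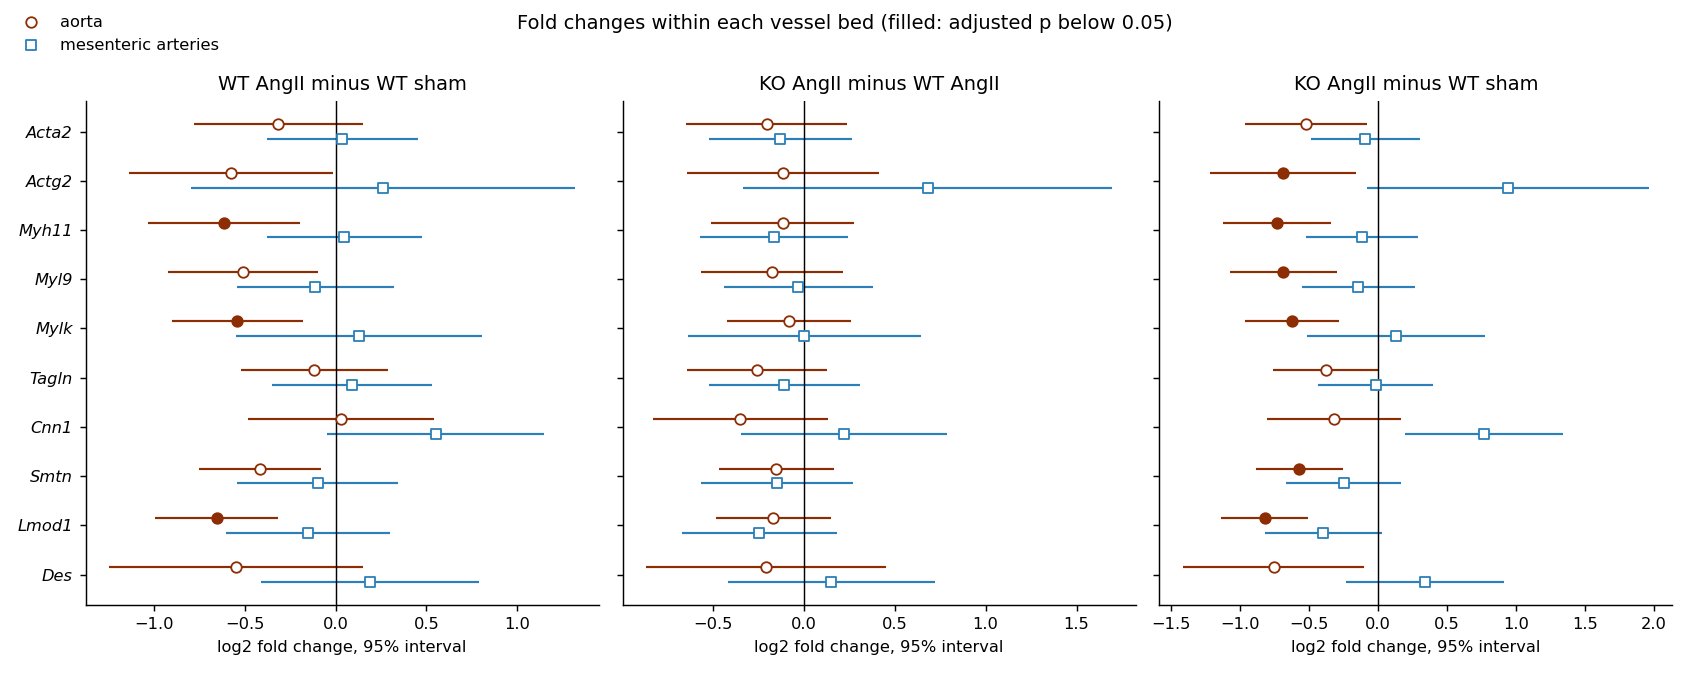
Log2 fold change of each member with its 95% interval in the 3 comparisons within each tissue (circles aorta, squares mesenteric arteries; filled where the adjusted p is below 0.05). In the aorta 3 members are filled for WT AngII against sham, none for KO against WT AngII and 6 for KO AngII against sham; in the mesenteric arteries none is filled.

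In the mesenteric arteries AngII infusion changed none of the 10 genes past the threshold. Cnn1 had the largest value, 0.55 ± 0.275 on the log2 scale (adjusted p = 0.506), and the other 9 lay between -0.15 ± 0.207 (Lmod1) and 0.26 ± 0.486 (Actg2). The median of the members was 0.07 and that of all genes tested was -0.0004. Over all 17513 genes 0.183% were called, all as higher. None of the 10 had an unadjusted p below 0.05, and DESeq2 called none. Over all genes libraries varied more here than in the aorta: the common dispersion was 0.1266 in the mesenteric fit and 0.02858 in the aortic fit. The standard errors of the members ran from 0.192 to 0.486 here and from 0.157 to 0.319 in the aorta. They were smaller here only for Acta2 and Des. Relative to the mean, the SD of every member was smaller here in WT AngII libraries (Myh11 15.4 against 26.7%). In KO AngII libraries it was larger here (Myh11 26.7 against 20.4%).

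Cnn1 stood at 895, 935, 648 and 877 CPM in sham libraries and at 1266, 980, 1402 and 1271 CPM after AngII. All 4 AngII libraries were above all 4 sham libraries, and the test did not pass. A lack of overlap, here and for other members and ratios, is a description. The share of all genes without overlap was not counted. Lmod1 stood at 1075, 1257, 909 and 1117 CPM and then at 933, 810, 1197 and 991 CPM, with overlap. Myh11 stood at 8933, 11223, 9389 and 8931 CPM and then at 9799, 8255, 11983 and 9854 CPM. The log2 fold change of the myosin heavy chain was 0.05 ± 0.197, with a 95% interval of -0.38 to 0.48. Mylk stood at 3253, 3665, 2724 and 3122 CPM and then at 3012, 3654, 3675 and 3647 CPM (0.13 ± 0.312). Acta2 stood at 11952, 13005, 12886 and 11004 CPM and then at 13816, 9736, 14206 and 12495 CPM (0.04 ± 0.192). For Myh11, Mylk and Acta2 the AngII libraries overlapped the sham range. Tagln lay between 5369 and 8806 CPM and Myl9 between 3102 and 4434 CPM in these 8 libraries, and neither passed (0.09 ± 0.203 and -0.11 ± 0.199). Smtn lay between 1007 and 1587 CPM (-0.10 ± 0.203).

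Deletion of Sphk1 left the 10 genes without a call in the AngII mesenteric arteries as well. The log2 fold changes ran from -0.25 ± 0.196 (Lmod1) to 0.68 ± 0.467 (Actg2), with a median of -0.07 against 0.02 for all genes, and 0.00571% of the 17513 genes were called, which is Sphk1. None of the 10 had an unadjusted p below 0.05, and none was called by DESeq2. The value of Actg2 rested on replicate 4, at 4291 CPM, while the other KO libraries stood at 1136, 937, 581 and 1070 CPM and the WT AngII libraries at 811, 989, 1026 and 1189 CPM. Without replicate 4 the log2 fold change of Actg2 was -0.10 ± 0.186, and that of Mylk moved from 0.002 ± 0.296 to -0.39 ± 0.164 (adjusted p = 0.597). Mylk stood at 6826 CPM in replicate 4 and at 3072, 2929, 1753 and 2875 CPM in the other KO libraries. Des stood at 5734 CPM in replicate 4 and at 3272, 2672, 1715 and 3101 CPM in the others.

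Replicate 4 of the mesenteric KO group was also the highest library for markers of visceral smooth muscle and its pacemaker cells. The 8 markers summed to 391 CPM there, against 63.9 to 173 CPM in the other 12 mesenteric libraries. Chrm2, the M2 muscarinic receptor, stood at 124 CPM there, at 20.4 and 19.1 CPM in WT AngII replicates 2 and 4, and at no more than 2.82 CPM in the other 10 libraries. Kit stood at 74.8 CPM, against no more than 17.5 CPM in the other mesenteric libraries. The tachykinin receptor Tacr2 stood at 8.25 CPM, against no more than 1.13 CPM. Etv1 and Nkx3-2 also had their highest mesenteric values there. Ano1 (84.6 CPM) and Hlx (36.1 CPM) lay close to other mesenteric libraries, which reached 80.7 and 33.9 CPM. Chrm3, at 4.25 CPM, was below WT AngII replicate 2, at 7.29 CPM. In the aorta the 8 markers summed to 161 to 220 CPM, above most mesenteric libraries. The part of these markers in the levels of Actg2, Mylk and Des in that library was not tested. Without the 3 libraries with Chrm2 above 10 CPM, no member was called in any of the 3 mesenteric comparisons, and the value of Actg2 for KO against WT AngII was 0.02 ± 0.240. Markers of gut epithelium and exocrine pancreas (11 genes) summed to 11.3 to 62070 CPM over the mesenteric libraries and to 2.65 to 4.89 CPM in the aorta. Leaving out the 6 mesenteric libraries above 1000 CPM leaves 1 sham library, and that fit called none of 19248 genes within this bed, so it says nothing about the members.

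Against WT sham, the KO AngII mesenteric arteries again had none of the 10 genes called, where 0.708% of all genes were called, 0.457% as higher and 0.251% as lower. Cnn1 alone had an unadjusted p below 0.05. Its KO libraries stood at 1504, 1082, 737, 2327 and 1500 CPM, and the log2 fold change was 0.77 ± 0.264 (adjusted p = 0.164). DESeq2 called Cnn1 higher (adjusted p = 0.0349), and without KO replicate 4 the edgeR value was 0.53 ± 0.210 (adjusted p = 0.19). Lmod1 had the lowest value, -0.40 ± 0.196 (adjusted p = 0.294), with KO libraries at 991, 761, 469, 960 and 956 CPM. Of the companion genes none was called within the mesenteric arteries in these 3 comparisons, over 14, 13, 7, 6 and 8 genes tested per list. In KO AngII against sham the desmin partner syncoilin (Sync) had a value of 0.43 ± 0.123 (adjusted p = 0.117) and the regulator Mrtfb one of -0.28 ± 0.070 (adjusted p = 0.0901).

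The response to AngII was then compared between the beds by the interaction of bed and infusion over all 26 libraries. None of the 10 genes was called, where 2.34% of all genes were called (126 higher and 308 lower, against 188 and 183 with library size alone). All 10 differences were above 0, meaning a higher value in the mesenteric arteries, from 0.20 ± 0.286 (Tagln) to 0.82 ± 0.575 (Actg2), with a median of 0.50 against -0.009 for all genes. Myh11 came nearest, with 0.65 ± 0.286 (unadjusted p = 0.0322, adjusted p = 0.269), followed by Lmod1 with 0.49 ± 0.273 (adjusted p = 0.419) and Mylk with 0.66 ± 0.368 (adjusted p = 0.421). The falls seen in the aorta were therefore not shown to differ from the values in the mesenteric arteries, gene by gene. Among the companion genes 2 were called: Tpm4, whose response was lower in the mesenteric arteries (-0.92 ± 0.126, adjusted p = 0.000424), and Ppp1r12a, whose response was higher there (1.05 ± 0.240, adjusted p = 0.0196). For the interaction of bed and deletion, 0 genes in all were called by edgeR (749 of 18520 at an unadjusted p below 0.05; DESeq2 called 4 higher and 11 lower), and the members ran from -0.08 ± 0.259 (Lmod1) to 0.79 ± 0.545 (Actg2).

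The beds differed most in desmin. Des stood at 90.0 to 147 CPM in the 4 sham aortas and at 2481, 2837, 2885 and 2223 CPM in the 4 sham mesenteric libraries. After AngII it stood at 35.9 to 114 CPM in the aorta and at 3026, 2510, 3404 and 2986 CPM in the mesenteric arteries, and in KO AngII mice the aortic libraries stood at 68.9, 67.7, 104, 62.4 and 55.5 CPM. Every mesenteric library was far above every aortic library. The log2 difference was 4.44 ± 0.351 in WT sham, 5.17 ± 0.363 in WT AngII and 5.52 ± 0.331 in KO AngII mice, which are folds of 21.7, 35.9 and 46.0. This difference was known when the genes were chosen and is given as a description, with no test. Striated muscle also expresses desmin, and 10 markers of it summed to 7.72 to 23.0 CPM in the sham aorta and 121 to 241 CPM in the sham mesenteric arteries, with 4 higher and 1 lower of the 8 tested. The corresponding counts were 5 and 1 in WT AngII and 3 and 2 in KO AngII mice, and the part of these markers in the level of Des was not tested.

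Actg2 was the second gene with a large difference. It stood at 198 to 315 CPM in the sham aorta and at 913, 867, 703 and 862 CPM in the sham mesenteric arteries. The groups did not overlap in any of the 3 conditions. The log2 difference was 1.70 ± 0.417 in WT sham, 2.53 ± 0.429 in WT AngII and 3.32 ± 0.397 in KO AngII mice, which are folds of 3.26, 5.76 and 9.96. The last value rested partly on mesenteric KO replicate 4, and without it the log2 difference was 2.53 ± 0.230 for Actg2 and 5.23 ± 0.289 for Des. As for Des, the difference of Actg2 was known beforehand and no test is given. Of the 8 markers of visceral smooth muscle and its pacemaker cells, 4 were higher and 1 lower in the mesenteric arteries in WT sham, 5 and 1 in WT AngII and 6 and 1 in KO AngII mice, with median log2 differences of 1.91, 1.63 and 2.51. Hlx was higher in WT sham (1.93 ± 0.138) and Ano1 lower (-2.05 ± 0.364), and the sums were 79.5 to 117 CPM against 187 to 217 CPM in the sham aorta. Their part in the difference of Actg2 was not tested. Reads of the actins can be told apart at this length: Acta2 and Actg2 transcripts share no identical stretch of 150 bases, and the longest they share is 29 bases.

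Ratios within a library do not depend on the scaling between libraries. Des reached 1.63 ± 0.363 counts per 100 Myh11 counts in the sham aorta and 27.2 ± 2.70 in the sham mesenteric arteries. The ratio was 1.66 ± 0.480 and 1.59 ± 0.141 in the AngII aortas of WT and KO mice, and 30.0 ± 1.09 and 35.9 ± 6.50 in the mesenteric arteries. Actg2 reached 1.61 ± 0.247, 1.34 ± 0.0832 and 1.46 ± 0.261 counts per 100 Acta2 counts in the 3 aortic groups and 6.90 ± 1.09, 8.19 ± 2.00 and 13.7 ± 12.0 in the mesenteric groups. Relative to the main actin and the main myosin, both genes were thus set apart by bed in every library, and the highest library was mesenteric KO replicate 4, with 35.2 Actg2 counts per 100 Acta2 counts.

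**Figure D3:**
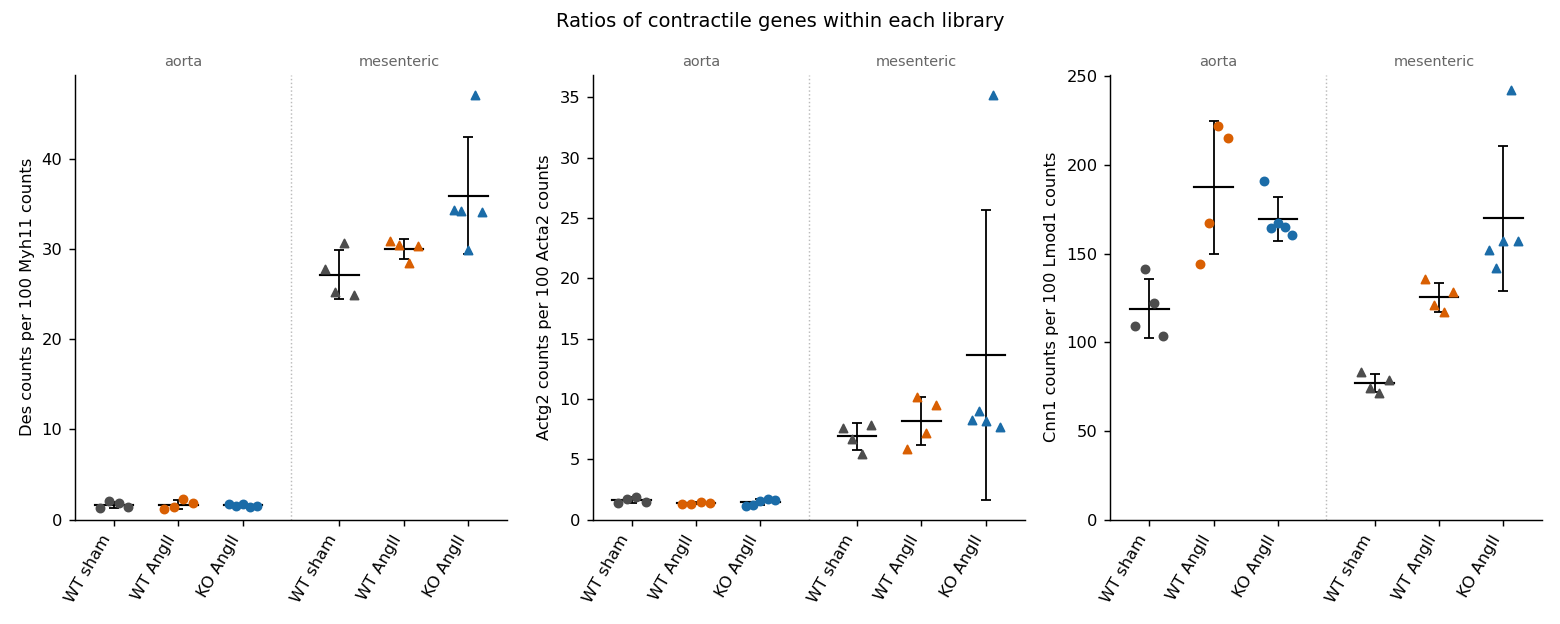
Counts of Des per 100 Myh11, Actg2 per 100 Acta2 and Cnn1 per 100 Lmod1 in each library (circles aorta, triangles mesenteric arteries; bars mean and SD; axes linear from 0). Des per 100 Myh11 is below 2.25 in every aortic library and above 24 in every mesenteric library, and Cnn1 per 100 Lmod1 is higher after AngII than in sham in both beds.

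The other 8 genes were tested between the beds in each condition. In WT sham 2 of the 8 were lower in the mesenteric arteries and none higher, where 38.4% of the 18520 genes tested were called, 17.7% as lower and 20.7% as higher. The log2 difference, mesenteric arteries minus aorta, was -0.83 ± 0.273 for Cnn1 (adjusted p = 0.0192) and -0.75 ± 0.189 for Smtn (adjusted p = 0.00288). Mylk (0.54 ± 0.261, adjusted p = 0.11) and Myh11 (0.39 ± 0.202, 0.138) did not pass in this fit. Mylk was called higher without mesenteric KO replicate 4 (0.0175) and without the libraries with Chrm2 above 10 CPM (0.0274). It was also called with limma voom (0.00278). With only the groups compared, both Mylk (0.00133) and Myh11 (0.0125) were called higher. In WT AngII mice 3 of the 8 were higher and none lower, where 40.4% of all genes were called, 21.3% as higher: Mylk by 1.19 ± 0.264 (adjusted p = 0.00087), Myh11 by 1.04 ± 0.204 (0.000267) and Myl9 by 0.55 ± 0.205 (0.0359). Smtn, at -0.44 ± 0.188, did not pass there (adjusted p = 0.0669). DESeq2 (0.048) and limma voom (0.0183) called Smtn lower. So did edgeR without aortic WT AngII replicate 1 (0.0256), mesenteric WT AngII replicate 3 (0.0235) or mesenteric KO replicate 3 (0.0351). In KO AngII mice 4 of the 8 were higher and 1 lower, where 47.6% of all genes were called, 26.8% as higher and 20.8% as lower. Mylk by 1.27 ± 0.236 (0.00012), Myh11 by 0.99 ± 0.183 (0.000112), Myl9 by 0.69 ± 0.184 (0.00358) and Tagln by 0.44 ± 0.182 (0.049) were higher, and Smtn was lower (-0.44 ± 0.168, 0.0346). With library size alone, 5114 genes were higher and 2471 lower in WT AngII mice in place of 3939 and 3544, and 6715 and 2648 in KO AngII mice in place of 4955 and 3857, with medians of all genes at 0.16 and 0.20. The share of members called was near or below the share of all genes called in WT sham and WT AngII mice, and 5 of 8 against 47.6% in KO AngII mice. Myh11 and Mylk are the motor and its activating kinase, and they were the members whose difference between beds was called in both AngII groups together with Myl9.

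The levels behind these differences show where the ranges part. Smtn stood at 2033 to 2414 CPM in the sham aorta and at 1111, 1560, 1352 and 1269 CPM in the sham mesenteric arteries, without overlap. Cnn1 stood at 1223 to 1825 CPM and at 648 to 935 CPM, again without overlap. Under AngII the order of Cnn1 was no longer fixed, with 829 to 2068 CPM in the WT aorta and 980 to 1402 CPM in the WT mesenteric arteries. Myh11 stood at 3164 to 6227 CPM in the AngII aorta of WT mice and at 8255 to 11983 CPM in their mesenteric arteries, and Mylk at 1120 to 2034 against 3012 to 3675 CPM. In the main fit Acta2 and Lmod1 were not called in any of the 3 bed comparisons. Acta2 was at -0.37 ± 0.212, -0.03 ± 0.211 and 0.04 ± 0.189, and its sham libraries did not overlap (13916 to 17978 CPM in the aorta and 11004 to 13005 CPM in the mesenteric arteries); in sham mice it was called lower with limma voom (adjusted p = 0.0295) and with only the groups compared (0.00713). Lmod1 was at -0.19 ± 0.193, 0.30 ± 0.193 and 0.22 ± 0.173. In KO AngII mice Lmod1 was called higher by edgeR without mesenteric KO replicate 3 (adjusted p = 0.0481) and by limma voom (0.0342). The call of Tagln lay at the threshold and was lost without any of 19 of the 26 libraries (adjusted p up to 0.153), that of Myl9 in WT AngII mice was lost without aortic replicate 1 or 2 or mesenteric replicate 3 or 4 (0.0612 to 0.133), and those of Smtn in KO AngII mice and Cnn1 in sham mice were lost without any of 5 and 2 libraries (up to 0.111 and 0.0655). Without the 6 mesenteric libraries rich in gut and pancreas markers, which leaves 1 sham library assumed to vary like the others, none of the 8 was called in WT sham (Smtn adjusted p = 0.148, Cnn1 0.109), 2 in WT AngII and 3 in KO AngII mice. Endothelial markers were higher in the mesenteric arteries for 10 of 10 genes in each of the 3 groups, and their sums were 990 to 1121 CPM in the sham aorta and 4031 to 4336 CPM in the sham mesenteric arteries, and their part in these differences was not tested. Tables of the 2 tissues carry identifiers of different form, so a separate counting of the beds cannot be told apart from the bed itself.

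**Figure D4:**
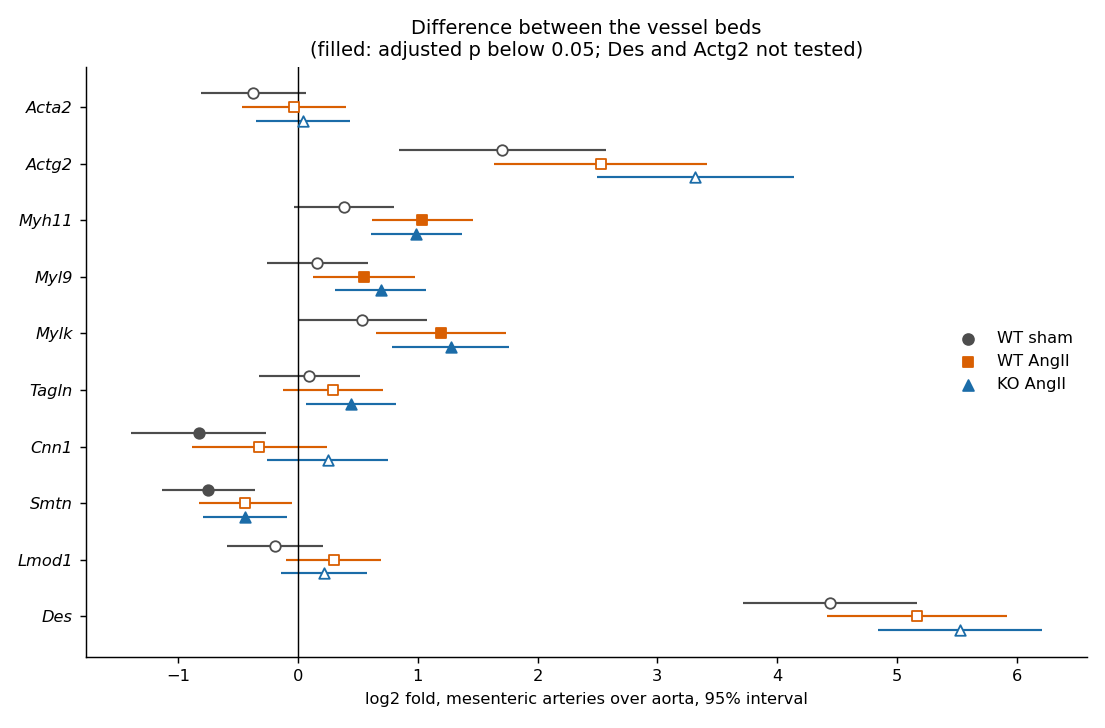
Log2 fold of mesenteric arteries over aorta for each member, with its 95% interval, in WT sham (circles), WT AngII (squares) and KO AngII (triangles) mice. Filled points have an adjusted p below 0.05; Des and Actg2 carry no test. Des lies between 4.44 and 5.52 and Actg2 between 1.70 and 3.32, while Acta2 lies between -0.37 and 0.04 with intervals that include 0.

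Companion genes were compared between the beds in the same way, where 38.4% (WT sham), 40.4% (WT AngII) and 47.6% (KO AngII) of all genes were called. Among 6 intermediate filament genes and partners, synemin (Synm), which assembles with desmin, was higher in the mesenteric arteries by 2.94 ± 0.320 in WT sham, 2.83 ± 0.319 in WT AngII and 3.36 ± 0.292 in KO AngII mice on the log2 scale. Syncoilin (Sync) was lower in the same order of groups (-1.87 ± 0.164, -1.33 ± 0.162 and -1.23 ± 0.144), as was vimentin (Vim; -0.59 ± 0.157, -0.45 ± 0.156 and -0.37 ± 0.140). In each group 2 of the 6 were called higher and 2 lower. Of 7 other actins and non-muscle myosins 4 were higher and 1 lower in WT sham, 3 and 1 in WT AngII and 2 and 1 in KO AngII mice. The non-muscle heavy chain Myh10 was the lower one (-3.28 ± 0.128 in WT sham and -2.84 ± 0.112 in KO AngII mice), and Myh14 (3.35 ± 0.584 and 2.73 ± 0.501) was higher. Of the light chain phosphorylation genes, the cGMP-dependent kinase Prkg1 was higher by 0.78 ± 0.152, 1.35 ± 0.154 and 1.11 ± 0.137 in the same 3 groups, with 1 higher and 2 lower of 13 called in WT sham and 5 higher and 1 lower in WT AngII. Of the 8 regulators 4 were higher and 1 lower in WT sham, and 3 higher and 1 lower in each AngII group. Mrtfb was higher in all 3 groups (0.46 ± 0.0949, 0.47 ± 0.0952 and 0.34 ± 0.0851), and Gata6 was the lower one, with -1.12 ± 0.162 in WT AngII and -0.98 ± 0.145 in KO AngII mice. Of 14 thin filament genes 4 were higher and 3 lower in WT sham, among them Cnn3 (-0.92 ± 0.0915), and 7 were higher and 3 lower in each AngII group, with Tpm1 at 1.14 ± 0.214 in WT AngII mice.

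Within a group, the 10 genes varied together from library to library. Over the 45 pairs of members and the 13 aortic libraries, correlations of log2 CPM centred on the group means ran from 0.64 (Myl9 with Mylk) to 0.98 (Cnn1 with Des), with a median of 0.87. Mesenteric values ran from 0.33 (Actg2 with Tagln) to 0.98 (Actg2 with Mylk), with a median of 0.83, and without KO replicate 4 from 0.46 to 0.97 over 12 libraries. Libraries share their makeup and scaling, so these values are a description. Des, low as it was in the aorta, followed the other members there with a correlation of 0.97 with their mean, and Mylk followed least, with 0.82.

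**Figure D5:**
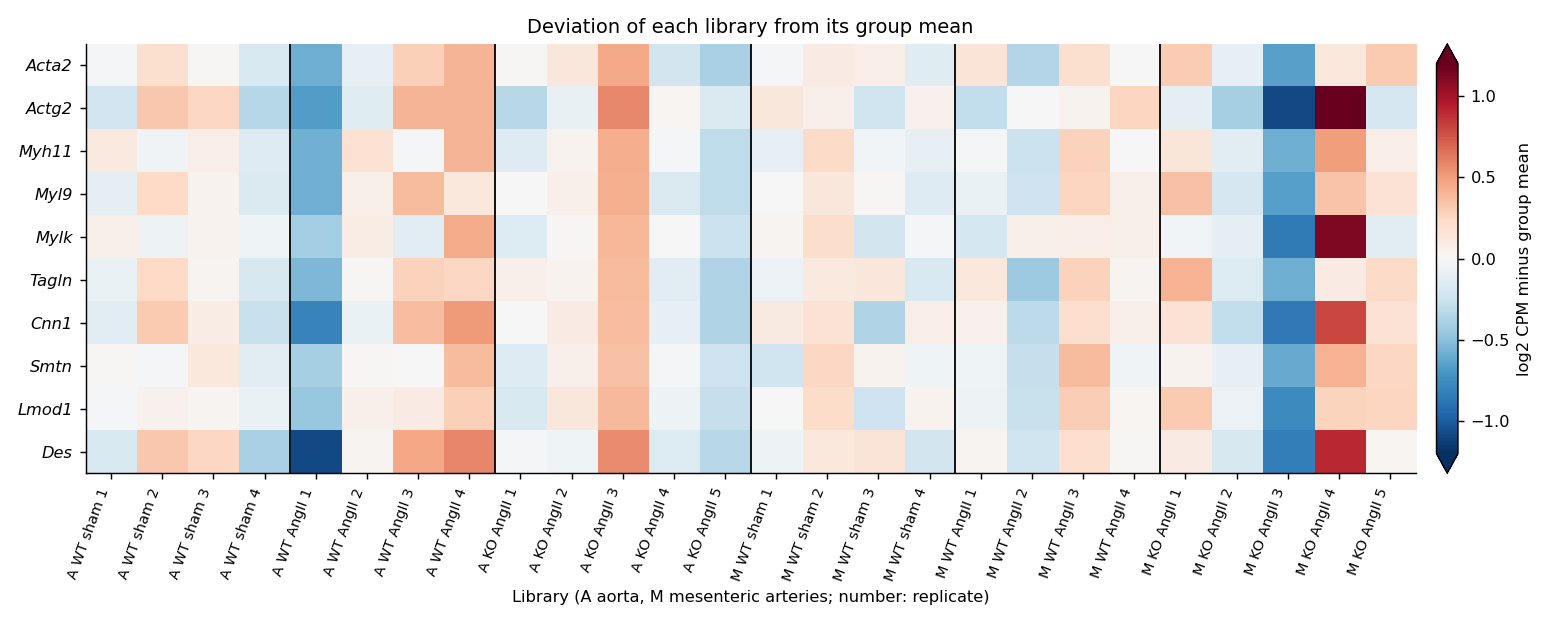
Log2 CPM of each member in each library minus its group mean (rows members, columns the 26 libraries, black lines between groups; red above and blue below the mean, colours saturate at the ends of the scale). Columns are mostly of one colour: aortic WT AngII replicate 1 and mesenteric KO replicate 3 are low for all 10 members, and mesenteric KO replicate 4 is high, most of all for Actg2, Mylk and Des.

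The genes whose library-to-library pattern was most like the mean of the members in the aorta were Efhd1 (Pearson r = 0.99), Marveld1 (0.99), Csrp1 (0.99), Pbxip1 (0.99) and Tpm1 (0.98), among 10345 genes over 13 libraries. In the mesenteric arteries they were Trnp1, Coro1c, Setd3, Sh3bgr and Stmn2 (0.98 each), and Coro1c and Trnp1 stayed at the top without KO replicate 4. Across all 26 libraries the genes most like Des were Nkx2-3, Slc6a17, Ppm1l, Susd2 and Sparcl1, with r between 0.98 and 0.99. Nkx2-3, a homeobox factor, stood at 4.62 ± 0.385 CPM in the sham aorta and 108 ± 12.7 CPM in the sham mesenteric arteries. Those most like Actg2 were Popdc2, Bdh1, Casz1, Cd59a and Des, with r between 0.96 and 0.97. These correlations are descriptions over libraries that fall into 2 beds.

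The proportion of the members to each other was not fixed. Calponin gained on leiomodin under AngII in both beds, a ratio noticed after the values were seen and given without a test. Cnn1 reached 119 ± 16.7 counts per 100 Lmod1 counts in the sham aorta, 187 ± 37.6 after AngII and 170 ± 12.3 in KO AngII mice. In the mesenteric arteries it reached 76.9 ± 5.18, 126 ± 8.17 and 170 ± 40.9. The WT sham and WT AngII libraries did not overlap in either bed, with 104 to 141 against 144 to 222 in the aorta and 71.4 to 83.3 against 117 to 136 in the mesenteric arteries. Myh11 reached 46.8 ± 5.07 counts per 100 Acta2 counts in the sham aorta and 78.8 ± 6.15 in the sham mesenteric arteries, so the myosin to actin proportion differed by bed without overlap in sham mice.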

How the data were processed

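The members and the gene lists were chosen with earlier results of these data known. The authors deposited 1 table of read counts per gene for each of 26 libraries, made from poly(A) RNA (PureLink RNA Micro kit, NEBNext Ultra II Directional kit, paired reads of 150 bases), per the labels' protocols. Per the submitters' processing notes the counts come from cutadapt, HISAT2 and HTSeq on GRCm39; versions, annotation release and strand setting are not given in the sources used here. Without the strand setting, antisense reads over Tagln, Smtn, Mylk and Des cannot be told apart. The 5 summary lines of each table stayed out of library sizes (reads without a feature came to 6.635 to 11.12%). Reads that did not align came to 11.4, 14.7 and 14.2% in mesenteric KO replicates 2, 3 and 4. They came to 12.0% in mesenteric WT AngII replicate 1 and to 0.572 to 2.52% in all other libraries. The part of this difference in the results was not tested.

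Each tissue was fitted apart, with 3 groups in 1 model; bed comparisons and interactions used all 26 libraries and 6 group means. edgeR 4.0.16 (R 4.3.3) was used with filterByExpr, TMM and the robust quasi-likelihood F test, two-sided, and p-values were adjusted over all genes by Benjamini-Hochberg. Printed CPM were scaled by TMM over all libraries. Fold changes carry standard errors, CPM carry SD, and intervals are 95% intervals. All members are named; each companion list gave, per comparison, at most 4 called genes in order of adjusted p, or at most 2 as values where none was called. The 5 genes most like the members' mean in each tissue, and like Des and Actg2 over all libraries, were named by Pearson correlation. Replicates within a group are separate mice per the labels. The labels do not say whether the same number marks the same mouse in both tissues. Bed comparisons and interactions treated all 26 libraries as independent. The fit was tested on simulated counts, and the outcome is not reported here. These counts were drawn independently around a mean per gene shared by all groups, apart from genes given a set change. Differences between the beds and shared library makeup were not simulated. Alternatives were DESeq2 1.42.0, limma 3.58.1 (voom, sample quality weights), scaling by RLE or by library size only, leaving genes unfiltered or keeping those with a CPM of at least 1 in at least 4 libraries, a block on replicate number, only the groups compared, each library left out, and mesenteric KO replicate 3 and WT AngII replicate 1 left out together. Leaving out mesenteric libraries with Chrm2 above 10 CPM, or with gut and pancreas markers above 1000 CPM, was chosen after seeing the data. Results for a few companion genes are not reported here.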

Additional observations from a re-analysis of the deposited data

Results flagged for a closer look

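In 4 of 66 group-wise checks of the 10 members and Sphk1, 1 library lay far from the others of its group; chance alone flags about 1 group in 20. Actg2 stood at 4291 CPM in mesenteric KO AngII replicate 4, where the other 4 libraries of the group lay between 581 and 1136 CPM. Mylk stood at 6826 CPM in the same library, where the others lay between 1753 and 3072 CPM. In mesenteric WT AngII replicate 1 Mylk stood at 3012 CPM, below the other 3 libraries, which lay between 3647 and 3675 CPM. Des stood at 104 CPM in aortic KO AngII replicate 3, where the others lay between 55.5 and 68.9 CPM.

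The response to AngII differed between the beds by the interaction test for 2 companion genes. The difference, mesenteric arteries minus aorta on the log2 scale, was -0.92 for the tropomyosin gene Tpm4 and 1.05 for Ppp1r12a, the targeting subunit of the myosin phosphatase.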

How the results depend on the processing

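Of 3200 values of single members under an alternative, none that was called by either fit changed its direction, 68 lost a call, 44 gained one and 105 uncalled values changed sign. Only values called in the main fit can lose a call, and most of the 3200 were not called there. Those of Des and Actg2 between the beds carry no test. In the aorta the 3 members called lower after AngII were 6 with library size alone, 5 with DESeq2, 7 with limma voom and 1 when only the 2 groups were fitted. Leaving out 1 library gave 1 to 5 members there and 5 to 8, against 6, for KO AngII against WT sham. The 6 members of that comparison were 9 with library size alone, 9 with limma voom and 8 with only the groups compared. In the mesenteric arteries DESeq2 called 1 member for KO AngII against WT sham in place of 0. Between the beds, the 2 of 8 members called in WT sham became 4 with limma voom, 5 with only the groups compared, 0 without the libraries rich in gut and pancreas markers and 1 to 3 without 1 library. The 3 in WT AngII ranged from 2 to 4 without 1 library. The 5 in KO AngII became 3 with only the groups compared, 3 without the libraries rich in gut and pancreas markers and 3 to 5 without 1 library. The causes of these changes were not tested, except that fewer libraries lower the precision. Over all genes, DESeq2 called 238 higher and 71 lower for AngII in the mesenteric arteries in place of 32 and 0, and 898 and 507 for KO AngII against WT sham in place of 80 and 44; limma voom called 197 and 53, and 262 and 213. The replicate block gave 8 and 0, and 19 and 1. For the interaction with AngII, limma voom called 538 and 713 in place of 126 and 308, DESeq2 322 and 545, and the replicate block 52 and 138.

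Correlations between same-numbered libraries passed 0.1 in 0 of 12 pairs of the aorta, 6 of 12 of the mesenteric arteries and 3 of 13 between the tissues. Differently numbered libraries were not compared, so these values cannot show whether replicate numbers pair the samples. With the replicate block, 5 members in place of 3 were called in the aorta after AngII and 3 in place of 5 between the beds in KO AngII mice. The AngII fall of Lmod1 in the aorta was called under every alternative run.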
